A study of Mus musculus with 18 samples.

Results

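The genes described here encode the enzymes that build and break down glycogen, and 2 subunits that direct a phosphatase to it. They are the 9 genes Gyg, Ugp2, Gys1, Gbe1, Pygb, Pygm, Pygl, Ppp1r3c and Ppp1r3d, chosen by symbol among the 21923 genes of the deposited table. All 9 were found, and all 9 had enough counts to be tested. They were read in ribosome pulldowns from the cortex of adult male C57BL/6 mice in the home cage. Translating ribosome affinity purification (TRAP) captures ribosomes that bear an EGFP tag, together with their bound mRNA. The mice labelled WT (mouse type GLAC +/wt) are called control, and those labelled Astro_Glut1_KO (mouse type GLUT1 flox/flox;GLAC +/wt) are called cKO. Per the study's methods, both groups carried a tamoxifen-inducible Cre recombinase under the GLAST promoter. Both also received a Cre-dependent virus that expresses EGFPL10a under a human GFAP promoter, and then tamoxifen on 5 consecutive days at 8 to 10 weeks of age, 60 days before the RNA was collected. The pulldown (IP) therefore samples those cells in which the virus, the promoter and the recombination came together.

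Glycogen is the main store of glucose in brain, and in adult cortex it is held mostly by astrocytes. Its synthesis starts from UDP-glucose on a glycogenin primer, is extended by glycogen synthase and is branched by the branching enzyme. Glycogen phosphorylase releases glucose-1-phosphate and exists as brain, muscle and liver isoforms, each from its own gene. Phosphorylase kinase switches phosphorylase on, and protein phosphatase 1, brought to the particle by its glycogen-targeting subunits, switches phosphorylase off and synthase on. The study removed Slc2a1 (GLUT1), a glucose transporter of astrocytes, and the comparison here asks whether the transcripts of these genes differed between the genotypes.

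The libraries compared were 3 control IP libraries, numbered 11, 15 and 19 in the study's source data, and 4 cKO IP libraries, numbered 1, 5, 9 and 17. These numbers name columns and are no replicate numbers. The labels list 5 control and 4 cKO IP samples, each from its own animal. The input libraries could not be tied to samples by name and were not used here, so no ratio of IP to input is given. Total estimated counts ran from 12570309 in cKO library 17 to 40734343 in control library 11, and 3 counts in library 17 correspond to 0.239 CPM, the count scaled to a common library size. Slc2a1 itself, on chromosome 4 of GRCm38 from 119108745 to 119137330, had between 57.6 and 61.7 CPM in controls and between 56.4 and 61.9 CPM in cKO mice. Its log2 fold change, cKO against control, was -0.013 (95% interval -0.28 to 0.25), so no reduction was detected in the deposited count. This count covers the whole gene and not the floxed exons alone. Whether that accounts for the lack of a reduction was not tested, because reads were not counted by exon here. The deposited count was therefore not taken as a check of the genotype. The study itself reported a reduction of Slc2a1 in cKO IP samples, by qPCR and by reads from a subset of its exons. Astrocyte markers were abundant, with Gja1 at 1134 CPM in controls and 1139 CPM in cKO mice on average. RNA of other cells was also present: the neuronal marker Snap25 had between 1572 and 2255 CPM in the 7 libraries.

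The sequences before 4 of these genes are shown to place the 3 phosphorylase isoforms and the phosphatase targeting subunit PTG (Ppp1r3c) beside each other. Each is the 250 bases that precede the RefSeq transcription start in GRCm38.p6, read 5′ to 3′ on the gene's strand. Capitals mark ACGTG on either strand, the core of the hypoxia response element. The windows are chr2:150786546-150786795, strand + for Pygb, chr19:6384158-6384407, strand + for Pygm, chr12:70227684-70227933, strand - for Pygl and chr19:36736605-36736854, strand - for Ppp1r3c.
Pygb: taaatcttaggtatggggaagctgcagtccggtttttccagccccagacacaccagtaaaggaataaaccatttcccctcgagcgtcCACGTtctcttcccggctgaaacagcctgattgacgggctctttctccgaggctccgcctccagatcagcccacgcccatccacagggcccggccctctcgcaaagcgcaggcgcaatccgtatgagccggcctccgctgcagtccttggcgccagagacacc
Pygm: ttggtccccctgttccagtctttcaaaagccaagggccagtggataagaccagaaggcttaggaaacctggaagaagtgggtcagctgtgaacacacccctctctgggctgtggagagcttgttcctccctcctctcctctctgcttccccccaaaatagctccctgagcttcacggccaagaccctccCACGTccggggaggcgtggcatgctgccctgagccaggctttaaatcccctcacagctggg
Pygl: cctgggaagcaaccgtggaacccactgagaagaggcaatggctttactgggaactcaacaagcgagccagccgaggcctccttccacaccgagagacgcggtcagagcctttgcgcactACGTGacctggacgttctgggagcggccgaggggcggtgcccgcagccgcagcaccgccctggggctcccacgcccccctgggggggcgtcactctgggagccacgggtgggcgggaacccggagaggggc
Ppp1r3c: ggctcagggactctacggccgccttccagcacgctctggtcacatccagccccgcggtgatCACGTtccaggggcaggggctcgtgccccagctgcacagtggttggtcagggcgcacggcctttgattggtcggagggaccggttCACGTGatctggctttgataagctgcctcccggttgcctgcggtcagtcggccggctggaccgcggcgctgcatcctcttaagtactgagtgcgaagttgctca

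The core ACGTG occurred once before Pygb, Pygm and Pygl and at 3 positions before Ppp1r3c, of which 2 are the same E-box (CACGTG) read on both strands. Of 32851 windows of this length before RefSeq starts, 16.6% held the core and 6.02% an E-box. Over all 9 genes it was present in 6 of 10 windows, Ugp2 having 2 windows, and was not found before Gyg, Gys1 and Gbe1. The isoforms differed in base composition, with 17 CpG dinucleotides before Pygb and 20 before Pygl but 4 before Pygm, against a median of 6 over all windows. The other windows of the 9 genes held from 9 (Gbe1) to 41 (Ppp1r3d). The core itself contains a CpG, and its share over all windows was not matched for CpG content. GC boxes (GGGCGG, either strand) stood at 3 positions before Pygl and were not found in the Pygb and Pygm windows, where 32.7% of all windows had at least 1. These matches describe the letters and are not evidence of a factor's binding.

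No difference between the genotypes was detected in any of the 9 genes. In the quasi-likelihood test of edgeR, adjusted by Benjamini-Hochberg over all 13296 genes tested, 0 of 9 passed an adjusted p of 0.05, where 0.0451% of all genes did. At an unadjusted p under 0.05 the number was also 0 of 9, against 2.58% of all genes. The exact test of edgeR and DESeq2 called 0 of 9 as well. In none of the 9 did the control and cKO libraries fall into separate ranges, which occurred in 5.11% of all genes. The log2 fold changes, cKO against control, lay between -0.26 for Gbe1 and 0.75 for Pygl. Their median was -0.12, with 3 higher and 6 lower in cKO libraries, and over all genes the median was 0.012, with 52.3% higher.

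**Figure D1:**
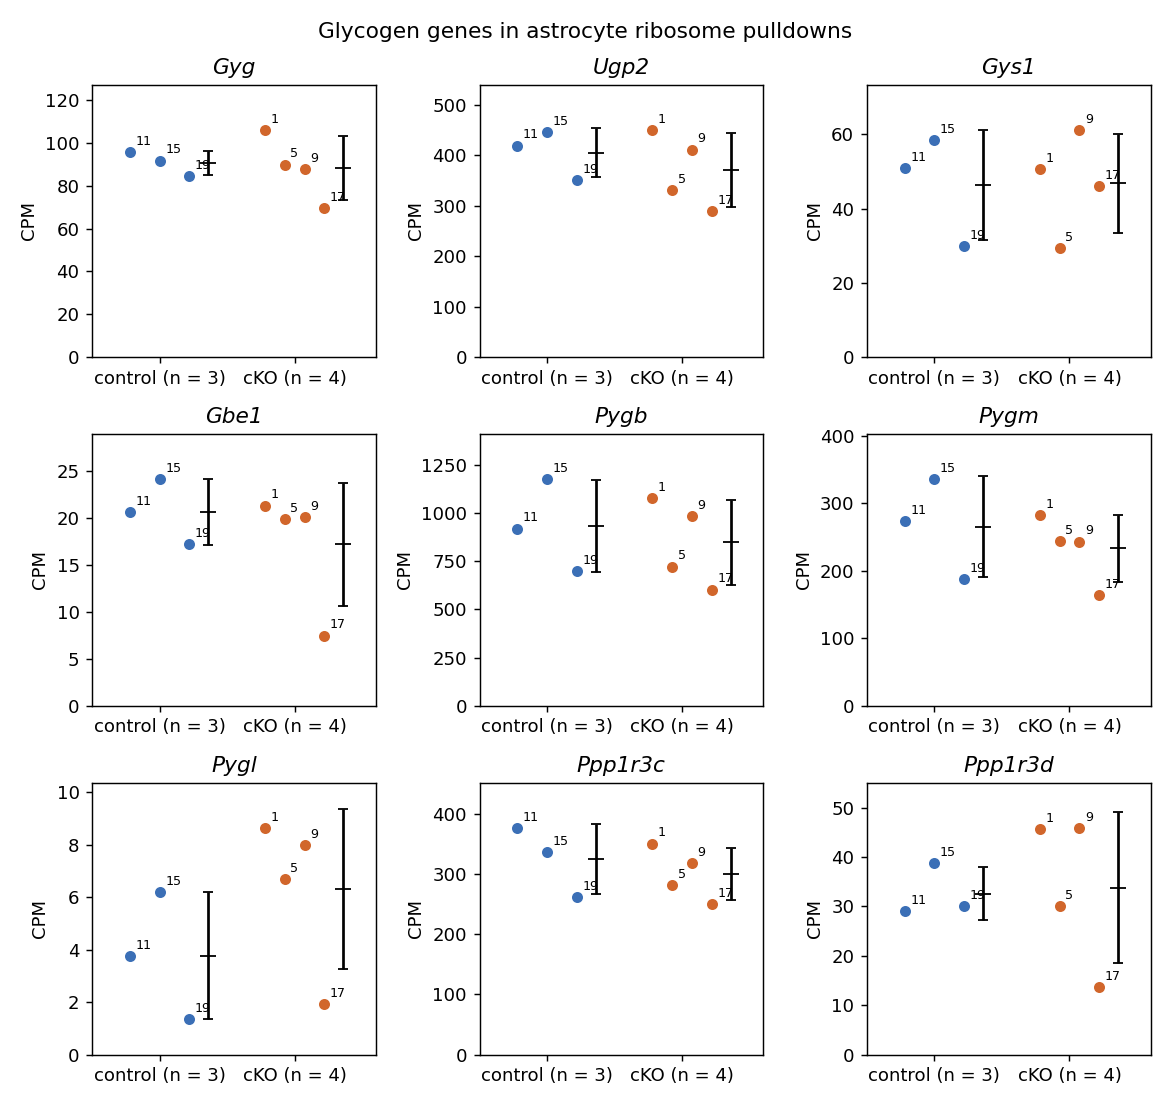
CPM of each of the 9 glycogen genes (vertical axes, each starting at 0) in the 3 control (blue) and 4 cKO (orange) IP libraries, labelled with the library number; black bars give the mean and SD. In every panel the genotypes overlap, and libraries 19 and 17 lie among the lowest 3.

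Gyg and Ugp2 act in the first steps of synthesis. Gyg, on chromosome 3 from 20122083 to 20155117, encodes glycogenin, the protein that primes a new particle. Gyg had 95.7, 91.8 and 84.6 CPM in control libraries 11, 15 and 19, and 106, 89.9, 87.6 and 69.5 CPM in cKO libraries 1, 5, 9 and 17. The cKO libraries enclosed the controls, with library 1 above and library 17 below all of them. Its log2 fold change was -0.039 (standard error 0.15, 95% interval -0.37 to 0.29). Ugp2, on chromosome 11 from 21321126 to 21371267, makes the UDP-glucose that synthase uses. In the same order of libraries, Ugp2 had 419, 446 and 350.2 CPM in controls and 449, 331, 411 and 288 CPM in cKO mice. Libraries 19, 5 and 17 were its lowest 3, so that low values occurred in both genotypes. The log2 fold change of Ugp2 was -0.13 (standard error 0.17, 95% interval -0.51 to 0.24).

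Glycogen synthase and the branching enzyme spread more. Gys1, on chromosome 7 from 45434839 to 45456617, encodes the synthase isoform of muscle and brain. It had 50.8, 58.4 and 29.9 CPM in control libraries 11, 15 and 19, and 50.7, 29.3, 61.1 and 46.0 CPM in cKO libraries 1, 5, 9 and 17. One control library (19) and one cKO library (5) stood at nearly the same low level, and the other 5 lay at 46.0 CPM or above. The group means were 46.4 ± 14.8 CPM (SD, n = 3) and 46.8 ± 13.2 CPM (SD, n = 4), and the log2 fold change was 0.0099 (standard error 0.27, 95% interval -0.58 to 0.60). Gbe1, on chromosome 16 from 70313949 to 70569720, encodes the branching enzyme. Its values were 20.6, 24.2 and 17.2 CPM in controls and 21.3, 19.9, 20.1 and 7.48 CPM in cKO mice. Apart from cKO library 17, in which it had an estimated count of 101, Gbe1 kept to a narrow range. Its log2 fold change of -0.26 (standard error 0.32, 95% interval -0.97 to 0.44) became -0.016 without that library.

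Brain and muscle phosphorylase were both well covered. Pygb, on chromosome 2 from 150786796 to 150831748, encodes the brain isoform, which responds strongly to AMP. It had 918, 1175 and 699.9 CPM in control libraries 11, 15 and 19, and 1078, 722, 984 and 603 CPM in cKO libraries 1, 5, 9 and 17. Pygm, on chromosome 19 from 6384408 to 6398464, encodes the muscle isoform, which responds strongly to phosphorylation. It had 273, 336 and 187 CPM in controls, and 282, 244, 243 and 164 CPM in cKO mice. For both isoforms control library 15 was highest and cKO library 17 lowest, with control library 19 second from the bottom. Pygb changed from a mean of 931 ± 238 (SD, n = 3) to 847 ± 222 CPM (SD, n = 4), a log2 fold change of -0.14 with a 95% interval from -0.64 to 0.37. The corresponding means of Pygm were 266 ± 74.7 and 233 ± 49.9 CPM, a log2 fold change of -0.19 with a 95% interval from -0.67 to 0.29. Neither difference exceeded the SD within a genotype.

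Pygl, on chromosome 12 from 70190815 to 70227683, encodes the liver isoform and rested on few counts. Its estimated count was 148, 170 and 28 in control libraries 11, 15 and 19, and 140, 173, 161 and 26.3 in cKO libraries 1, 5, 9 and 17. This corresponds to 3.76, 6.18 and 1.35 CPM in controls and 8.64, 6.70, 7.999 and 1.93 CPM in cKO mice. Of the cKO libraries 1, 5 and 9 were above every control, and library 17 was below 2 of the 3. The log2 fold change of 0.75 was the largest of the 9 genes, with a standard error of 0.60 and a 95% interval from -0.58 to 2.07 (adjusted p = 0.9996, edgeR). Its unadjusted p was 0.240 in the edgeR test and 0.343 in the exact two-sided permutation test of 3 against 4 libraries. The change stood at 0.35 without control library 19 and at 1.29 without control library 15. A difference in Pygl between the genotypes was thus not detectable against the spread between libraries.

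The targeting subunits of protein phosphatase 1 behaved unlike each other in spread. Ppp1r3c, on chromosome 19 from 36731731 to 36736604, encodes PTG, which brings the phosphatase to synthase and phosphorylase. It had 376, 336 and 262 CPM in control libraries 11, 15 and 19, and 350.0, 281, 318 and 249.7 CPM in cKO libraries 1, 5, 9 and 17. Library 19 was the lowest control and library 17 the lowest of all, a ratio of highest to lowest of 1.51. The log2 fold change of Ppp1r3c was -0.12 (standard error 0.16, 95% interval -0.47 to 0.24). Ppp1r3d, on chromosome 2 from 178411206 to 178414463, encodes another targeting subunit of the same family. Its values were 29.1, 38.7 and 30.0 CPM in controls, and 45.6, 30.1, 45.9 and 13.6 CPM in cKO mice. The cKO libraries spanned a 3.37-fold range and enclosed all controls. The log2 fold change of Ppp1r3d was 0.054 (standard error 0.34, 95% interval -0.70 to 0.81).

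**Figure D2:**
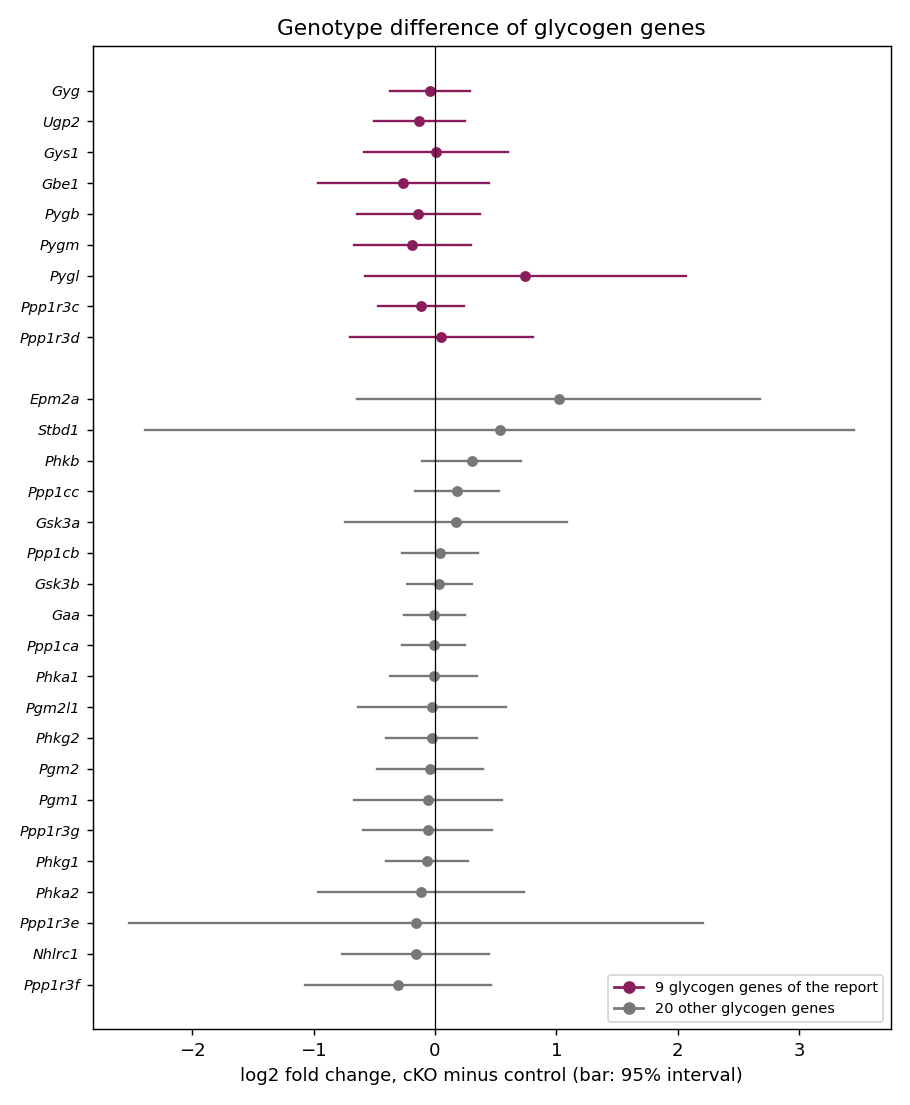
Log2 fold change of cKO against control (horizontal axis) with its 95% interval for the 9 glycogen genes (purple) and 20 of the 21 other glycogen genes tested (grey). Every interval shown includes 0, and the widest of the 9 belongs to Pygl (-0.58 to 2.07).

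The other genes of the pathway were taken from a list of 24, of which 21 were tested. In the edgeR fit 0 of 21 passed after adjustment, and 0 of 21 had an unadjusted p under 0.05. The median log2 fold change was -0.021, with 7 higher and 14 lower in cKO libraries. Of the 5 phosphorylase kinase subunits, Phkb (the beta subunit) had 35.7 ± 5.34 CPM (SD, n = 3) in controls and 44.0 ± 8.35 CPM (SD, n = 4) in cKO mice, a log2 fold change of 0.30 with a standard error of 0.18 (unadjusted p = 0.129 from edgeR). The other 4 lay between -0.12 and -0.012. Gaa, the lysosomal glucosidase, had a log2 fold change of -0.0038. Epm2a (laforin), a glycogen phosphatase, had the largest value of the list at 1.02, with a standard error of 0.75. It was 0.53 without cKO library 17 and 1.82 without control library 19, and 2.68 with the oligodendrocyte covariate described below (unadjusted p = 0.0261, adjusted p = 0.468 from edgeR). Controls had 2.19 ± 1.67 CPM (SD, n = 3) and cKO mice 4.41 ± 3.35 CPM (SD, n = 4). The log2 fold change of Nhlrc1 (malin), a ubiquitin ligase that works with laforin, was -0.16. The glycogen-binding protein Stbd1, at most 1.12 CPM in any library, was at 0.53 with a standard error of 1.32. The targeting subunits Ppp1r3f and Ppp1r3e were at -0.30 and -0.16, with standard errors of 0.35 and 1.07. The liver synthase Gys2 and the muscle targeting subunit Ppp1r3a had at most 2 and 1 counts in any library and were not tested, nor was Ppp1r3b, with at most 53.

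The balance among the phosphorylase isoforms was read within each library, where depth cancels. Estimated counts were not adjusted for transcript length, so the ratios compare libraries and do not rank the isoforms. The count of Pygm came to 29.8%, 28.6% and 26.8% of that of Pygb in control libraries 11, 15 and 19, and to 26.2%, 33.8%, 24.7% and 27.1% in cKO libraries 1, 5, 9 and 17. On the log2 scale this ratio was -1.82 ± 0.078 (SD, n = 3) in controls and -1.85 ± 0.20 (SD, n = 4) in cKO mice, a difference of -0.030. The genotypes overlapped, and across the 7 libraries the ratio had an SD of 0.15, where the log2 CPM of Pygb and Pygm each had one of 0.36. The proportion of Pygb and Pygm thus moved less than the level of either. They did not move together throughout: from cKO library 5 to 9 Pygb went from 722 to 984 CPM and Pygm from 244 to 243 CPM. Pygl added between 0.152% and 0.689% of the summed phosphorylase counts. Its log2 ratio to Pygb was -8.18 ± 0.76 (SD, n = 3) in controls and -7.23 ± 0.70 (SD, n = 4) in cKO mice. The difference of 0.94 was larger than either SD, but library 17 lay among the controls, and without control library 19 or 15 Pygl itself moved as given above.

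**Figure D3:**
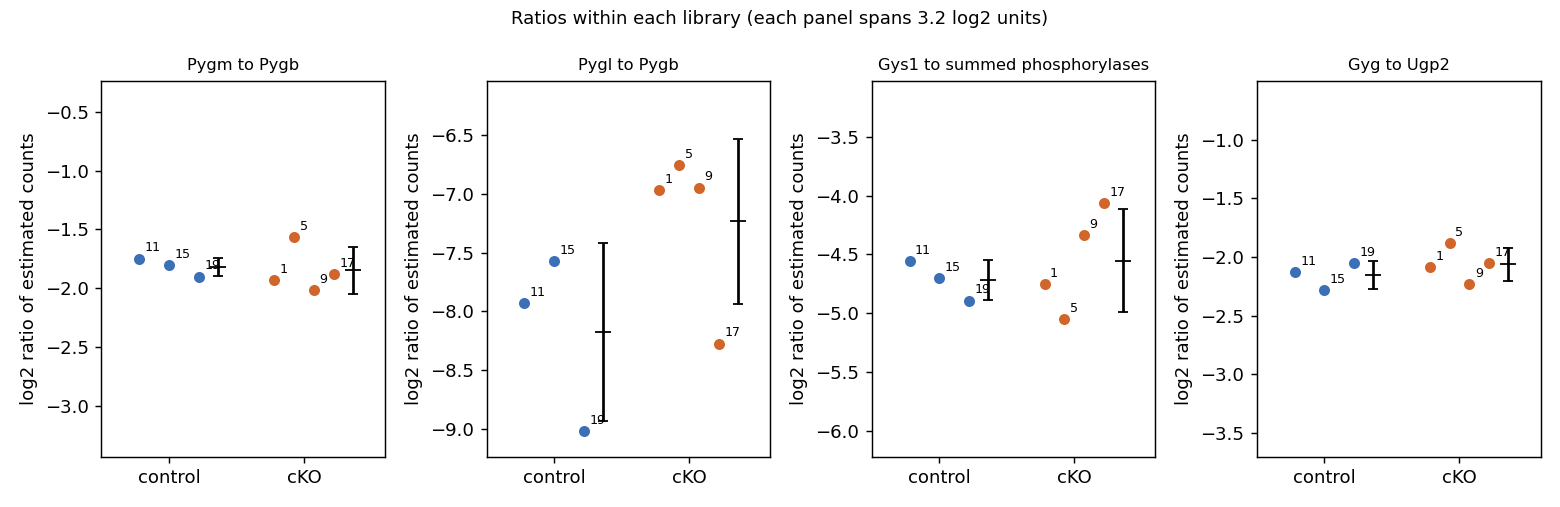
Log2 ratio of estimated counts within each library (vertical axes, all spanning the same range but not starting at 0) for Pygm to Pygb, Pygl to Pygb, Gys1 to the 3 phosphorylases and Gyg to Ugp2. Points are libraries with their number and black bars the mean and SD: the ratio of Pygm to Pygb stays within a narrow band, and that of Gys1 to the phosphorylases spreads in the cKO libraries.

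Synthase against phosphorylase was compared in the same manner. Counts of Gys1 were 4.25%, 3.85% and 3.37% of the summed phosphorylase counts in control libraries 11, 15 and 19. In cKO libraries 1, 5, 9 and 17 they were 3.70%, 3.01%, 4.95% and 5.99%. The cKO libraries held both the lowest and the highest share, and the log2 ratio had an SD of 0.44 among them against 0.17 among controls. Its difference between the genotypes was 0.16, smaller than either SD. The log2 ratio of Gyg to Ugp2 had an SD of 0.13 across all 7 libraries and differed by 0.092 between the genotypes. Between the targeting subunits the ratio of Ppp1r3d to Ppp1r3c differed by 0.024 with an SD of 0.63 among cKO libraries.

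For each of the 9 genes the difference between the genotype means was smaller than the larger of the SDs in CPM within a genotype. Control library 19 and cKO library 17 were among the lowest 3 for 9 of the 9 genes, and library 17 was the lowest for 7 of them. The exceptions were Gys1, lowest in cKO library 5, and Pygl, lowest in control library 19. Control library 15 and cKO library 1 were each highest for 3 genes, and cKO library 9 for 2. Relative to each gene's own mean on the log2 scale, the median of the 9 genes was 0.38 in library 15, 0.26 in library 1, 0.18 in library 9 and 0.14 in library 11. It was -0.055 in library 5, -0.23 in library 19 and -0.51 in library 17. In library 19, 9 of the 9 genes lay below their own mean, as did 13 of the 21 other glycogen genes tested. In library 17 these counts were 8 of 9 and 12 of 21. Libraries 15 and 1 had 0 of 9, with 9 and 8 of the 21 others. Over all tested genes the share below the gene's own mean was between 45.2% and 51.4% in every library. How often each library ranked lowest, or among the lowest 3, over all tested genes was not counted.

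**Figure D4:**
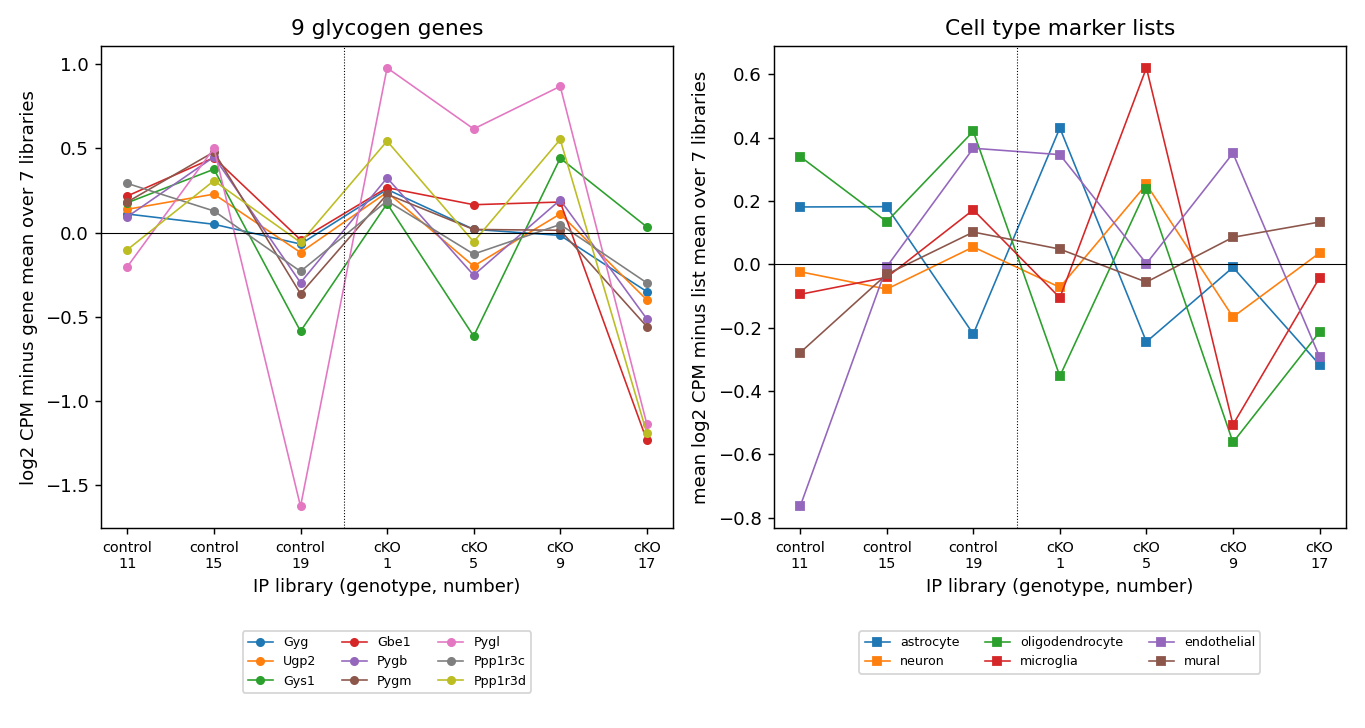
Left, log2 CPM of each of the 9 glycogen genes relative to its own mean over the 7 IP libraries; right, the same for the mean of each cell type marker list; libraries are on the horizontal axis with their genotype and number, and the dotted line parts the genotypes. Most glycogen genes and the astrocyte markers are low in libraries 19 and 17, with Gys1 near its own mean in library 17.

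Markers of astrocytes moved in part with this pattern. The summed level of the 8 astrocyte markers was 43124, 44175 and 28882 CPM in control libraries 11, 15 and 19, and 56107, 29761, 37255 and 28525 CPM in cKO libraries 1, 5, 9 and 17. Most of each sum was Aldoc, with 27622 CPM in library 11. In the mean of the 8 markers' log2 CPM, libraries 19, 5 and 17 were lowest (10.7, 10.7 and 10.6). Gja1, however, stayed between 1042 and 1233 CPM. In library 17, Slc1a2 and S100b were near their own means (-0.030 and -0.080 in log2). Library 5 lay below library 19 in the marker mean, but above it in the median of the 9 glycogen genes (-0.055 against -0.23). The 3 lowest astrocyte sums were also in libraries 19, 5 and 17. These libraries had the highest sums of the 6 neuronal markers (3107, 3216 and 3120 CPM, against 2191 to 2667 CPM in the others). Most of each neuronal sum was Snap25. Snap25, Syt1 and Rbfox3 were highest in libraries 19, 5 and 17, but Gad1 was lowest there (29.0, 23.7 and 34.3 CPM). Nefl and Slc17a7 followed neither pattern. In such pulldowns, fewer tagged astrocytes, less of a transcript per astrocyte and more RNA carried over from other cells cannot be told apart. Taken relative to the geometric mean of Gja1, Aldh1l1, Slc1a3 and Slc1a2, the log2 levels varied less across the 7 libraries. The SD fell from 0.36 to 0.20 for Pygb, from 0.36 to 0.20 for Pygm, from 0.24 to 0.13 for Ugp2, from 0.22 to 0.13 for Ppp1r3c and from 0.43 to 0.34 for Gys1. On that scale the genotypes differed by -0.063 for Pygb, -0.093 for Pygm, -0.064 for Ugp2, -0.030 for Ppp1r3c and 0.10 for Gys1, each smaller than the SD among cKO libraries.

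Oligodendrocyte markers were the one list whose summed level parted the genotypes. Their summed level was between 566 and 600.0 CPM in controls and between 374 and 562 CPM in cKO mice, and 6 of 6 had a negative log2 fold change (median -0.39). In the mean of their log2 CPM, library 5 (5.39) stood above control library 15 (5.29), so that the genotypes overlapped on that scale, and none passed the adjusted threshold in edgeR. Relative to its own mean, the list stood at 0.34, 0.13 and 0.42 in control libraries 11, 15 and 19. In cKO libraries 1, 5, 9 and 17 it stood at -0.35, 0.24, -0.56 and -0.21. As a covariate it thus largely tracked genotype, and the effects of the 2 cannot be told apart well with 7 libraries. With this mean as a covariate, 0 of 9 glycogen genes passed, but 8 of 9 were lower in cKO libraries, against 6 without it. The median log2 fold change over all genes was then -0.0072. The log2 fold change of Gys1 became -0.78 (unadjusted p = 0.0113, adjusted p = 0.447 from edgeR), that of Pygb -0.58 (unadjusted p = 0.0675) and that of Ugp2 -0.42 (unadjusted p = 0.0916). Under the same covariate Pygm was at -0.36, Ppp1r3c at -0.30 and Pygl at 0.31. The unadjusted p of Gys1 under this covariate was the smallest of the 9 genes over all alternatives. With the mean of the neuronal markers as the covariate instead, Gys1 was at 0.075, Pygb at -0.088 and Ugp2 at -0.10. The microglial markers were at 39.4 to 77.0 CPM in sum, the endothelial ones at 9.43 to 22.8 CPM and the mural ones at 39.2 to 59.97 CPM, with overlap between the genotypes in each list.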

How the data were processed

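Per the labels and the study's methods, the authors trimmed single-end Smart-seq2 reads with cutadapt 1.15, assigned them to GENCODE vM17 transcripts (GRCm38) with kallisto 0.44.0 and deposited one table of estimated counts by gene symbol, with no scaling for depth or length. Kallisto divides reads that related transcripts share. Of 18 columns, the 7 that the study's source data name as control or cKO IP samples were used; the other 11 were not used in any step. The study left out a sample with very few reads, and IP samples with high neuronal expression.

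Counts were rounded, filtered with filterByExpr (13296 genes kept), scaled by TMM and tested with the quasi-likelihood test of edgeR 4.0.16 (R 4.3.3) on genotype alone, at an adjusted p of 0.05. The study used edgeR's exact test, run here as an alternative beside DESeq2 1.42.0, other normalizations and filters, marker covariates and leaving out each library. Standard errors and 95% intervals come from the F statistic. Marker means used log2 CPM with a prior count of 2. Balances between genes were planned per kilobase, but transcript lengths were not used here, so they are ratios of counts. The code was tested on simulated data. No 2 libraries of a genotype agreed within sampling noise (lowest chi-square per degree of freedom 32.2).

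The genes and lists were chosen with earlier results of these data known. Named genes are the 9 genes, Slc2a1, and the 3 highest and 3 lowest fold changes of the other glycogen genes; Gaa, the untested genes and the markers were named after their values were seen. One gene of the list is not reported here by name. Positions and sequences are from RefSeq, GRCm38.p6, found for 9 of 9 genes; the 3 counts behind the stated floor cover counting error only.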

Additional observations from a re-analysis of the deposited data

Results flagged for a closer look

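For Gbe1, cKO library 17 lay far from the other cKO libraries, with 7.485 CPM against 19.9 to 21.3 CPM, a gap of 0.895 of the group's range. Among the 4 cKO libraries, 30 sets of values were examined in this way and 1 stood out, where chance gives 1.5. Library 17 also had the lowest depth, and the part of depth in this value was not tested.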

How the results depend on the processing

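The number of the 9 glycogen genes with an adjusted p under 0.05 was 0 in all 17 alternatives. Over all genes the count was 6, and 18 with the exact test and 22 with DESeq2; without each library in turn it ran from 4 to 6. The cause was not tested. Scaling to astrocyte markers, the setting that moved the median of all genes most, put it at 0.085.

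Signs near 0 turned, with no call involved. Scaling to astrocyte markers gave 0.024 for Gyg and 0.060 for Slc2a1, and upper-quartile normalization -0.0044 for Gys1. The oligodendrocyte covariate gave -0.78 for Gys1, -0.43 for Ppp1r3d and 0.14 for Ppp1r3e. With each library left out, log2 fold changes ran from -0.14 to 0.059 for Gyg, -0.23 to 0.21 for Gys1, -0.31 to 0.065 for Pygb, -0.39 to 0.018 for Pygm, -0.25 to 0.0024 for Ppp1r3c and -0.13 to 0.31 for Ppp1r3d. They ran from -0.35 to 0.014 for Nhlrc1, -0.65 to 0.24 for Ppp1r3e, -0.041 to 1.34 for Stbd1, which did not pass the low-count filter without cKO library 5, and -0.038 to 0.011 for Slc2a1. Ugp2 (-0.24 to -0.028 with a library left out, -0.42 with the oligodendrocyte covariate) and Gbe1 (-0.38 to -0.016 with a library left out) stayed negative in all alternatives, and Pygl (0.35 to 1.29 with a library left out, 0.31 with the covariate) stayed positive. The difference in the log2 ratio of Pygm to Pygb ran from -0.13 to 0.026 and that of Gys1 to the phosphorylases from 0.00071 to 0.33. Each shift from the value with all libraries was smaller than the SD among cKO libraries (0.20 and 0.44). The SD among controls was smaller, at 0.078 and 0.17. With Pygb or Pygm alone in the denominator, chosen after seeing the data, the difference for Gys1 was 0.16 and 0.19.

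No paired analysis was possible because the columns carry no replicate number. The planned length alternatives were not run. Pygl, Stbd1 and Ppp1r3e rested on few counts, and Stbd1 and Ppp1r3e did not pass the minimum of 1 CPM in 3 libraries.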
